A study of Sus scrofa with 43 samples.

Results

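Interleukins, chemokines and their receptors were followed in the jejunal mucosa of suckling and weaned piglets. The genes were chosen by name. Every spot was taken whose transcript accession is a pig RefSeq transcript with a symbol that starts with IL and a digit, or with CCL, CXCL, CCR or CXCR and a digit. This gave 67 transcripts on 90 spots, of 35884 transcript accessions on the array. Of these genes, 46 had 1 probe, 19 had 2 and 2 had 3. They comprised 15 CC chemokines, 8 CXC chemokines, 9 chemokine receptors, 21 interleukins, 13 interleukin receptor chains and IL1RAPL1, a neuronal protein named after an interleukin receptor.

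Scrapings of jejunum from 43 healthy male piglets of Hypor sows were hybridized to 1 one-color Agilent array each. Sows of the amoxicillin arm received this beta-lactam antibiotic on top of their feed at 15 mg/kg body weight daily, over the week before farrowing, and sows of the control arm received standard feed without it. The piglets themselves were not dosed. There were 6 control and 4 amoxicillin piglets of day 1, 6 and 4 of day 7, 3 and 4 of weaning (day 26), 5 and 4 of 4 d postweaning (day 30), and 3 and 4 of 4 wk postweaning (day 54). Piglets of different ages were different animals. By the study's methods each sow gave 1 piglet at each age, so piglets of different ages may be littermates. The labels do not name the sow. Among the control arrays of day 1 are those labelled 19 and 19B, whose relation the labels do not give. They were counted as separate piglets, and the tests took all piglets as independent.

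The arrays lay on 6 slides, slides 1 to 3 with control arrays only and slides 4 to 6 with amoxicillin arrays only, so slide and amoxicillin cannot be told apart. Adjacent ages shared slides within each arm, which allowed age differences to be computed within slides too. Among all spots with gene probes, 58.35 to 68.09% were well above background on 22 control arrays and 41.57 to 60.02% on 18 amoxicillin arrays. On 3 arrays of 4 wk postweaning this share was under 40%, namely control piglet 34 (36.38%) and amoxicillin piglets 37 (36.87%) and 38 (37.03%). All 7 enterocyte markers with a named probe, such as FABP2 and APOA4, were well above background on all 43 arrays. A scraping holds many cell types, and fewer cells of a type and less RNA per cell cannot be told apart in such bulk samples.

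Chemokines are small secreted proteins that direct the migration of leukocytes which carry the matching receptor. In the small intestine, CCL25 from enterocytes and its receptor CCR9 guide lymphocytes into the mucosa, CCL28 and CCR10 guide plasma cells that make IgA, and CCL19 and CCL21 guide dendritic cells and naive lymphocytes through CCR7. CXCL9, CXCL10 and CXCL11 are induced by interferons and attract activated T cells. Interleukins are cytokines by which leukocytes and epithelial cells signal to each other, and several of their receptors share a signalling chain, such as IL6ST (gp130) for the IL-6 family and IL2RG for the IL-2 family.

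A gene was counted as detected on an array when the scanner software marked at least 1 of its spots as well above background. Each of the 67 genes was detected on at least 1 array, and 13 were detected on all 43: CCL2, CCL5, CCL14, CCL19, CCL20, CXCL8, CXCL10, CXCL14, CXCL16, IL10RB, IL15, IL16 and IL18. In all, 56 genes were detected on the majority of the arrays of at least 1 of the 10 groups. These included all 15 CC chemokines, all 8 CXC chemokines and all 9 chemokine receptors, but 14 of 21 interleukins and 10 of 13 interleukin receptor chains. The 11 others were IL2, IL4, IL12A, IL13, IL17A, IL21, IL23A, IL2RA, IL12RB2, IL23R and IL1RAPL1. The rule was easier to meet in groups of 3 arrays. IL12B, detected on 6 arrays, met it only through 2 of 3 control arrays of 4 wk postweaning, and IL6, detected on 13, only through 2 of 3 of weaning. The share of all transcripts that met the rule was not computed. The T cell cytokines IL2, IL4, IL13, IL17A and IL21 were detected on 1 to 3 arrays each. A control array detected 33 to 57 of the genes (median 53) and an amoxicillin array 31 to 51 (median 44), in the same order as the shares over all spots.

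**Figure D1:**
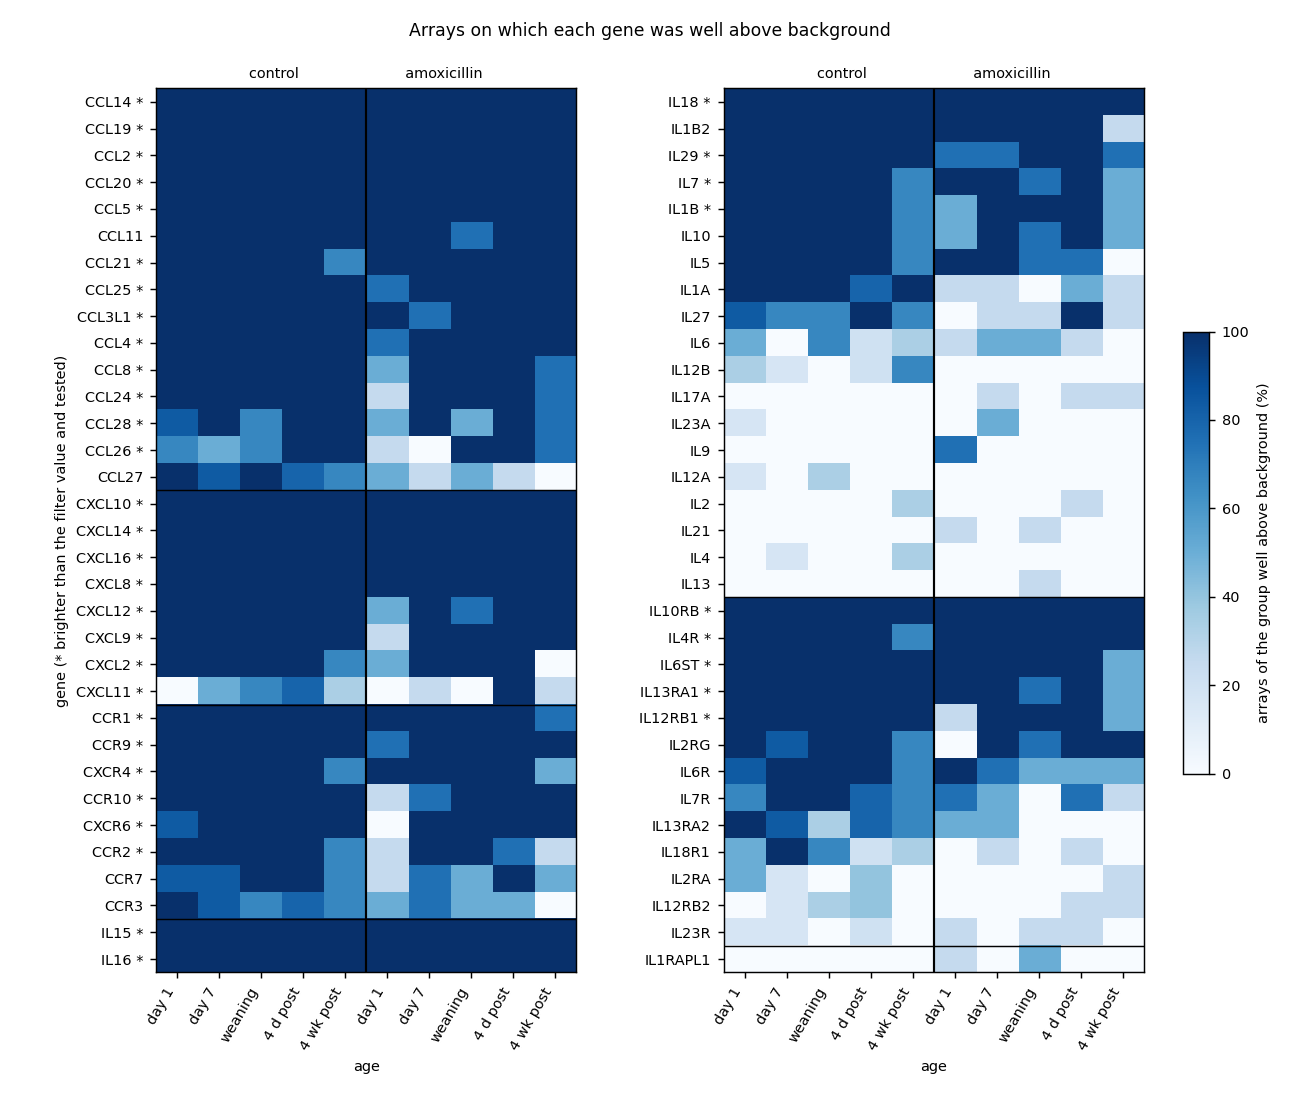
Share of the arrays of each group (color, percent) on which each of 66 genes was well above background, for the 5 ages of the control arm and the 5 ages of the amoxicillin arm. Lines separate CC chemokines, CXC chemokines, chemokine receptors, interleukins, interleukin receptors and IL1RAPL1, and stars mark the 38 of them bright enough to be tested. Chemokines form the dark block at the upper left, while IL2, IL4, IL13 and IL21 are pale in nearly every group.

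A gene entered the tests when its normalized log2 intensity exceeded 7.68 on every array of at least 1 group. This value is 1.1 times that of the brightest unflagged dark spot (6.98). The filter kept 39 of the 67 genes (58.2%), against 35.6% of all transcripts. A gene could pass through the group in which it was brightest: 12 of the 39 passed in all 10 groups, while CCR2, CXCL2, CXCL11, IL1B and IL13RA1 passed in 1 group each. CCL24, CCL28 and IL29 passed through 1 group of 4 d and 1 of 4 wk postweaning each, and CCL26 through the groups of 4 wk postweaning. Counts over the 39 genes therefore describe those that passed and not all 67. The 28 genes that did not pass were CCL11, CCL27, CCR3, CCR7, IL1A, IL1B2, IL2, IL4, IL5, IL6, IL9, IL10, IL12A, IL12B, IL13, IL17A, IL21, IL23A, IL27, IL2RA, IL2RG, IL6R, IL7R, IL12RB2, IL13RA2, IL18R1, IL23R and IL1RAPL1. Log2 intensities of different genes come from different probes and were not compared with each other.

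Some dim genes were nevertheless detected regularly. CCL11, an eotaxin, was detected on 42 arrays, IL10, the anti-inflammatory cytokine, on 37, IL5 and IL2RG on 36 each, and CCR7 on 32. IL27 was detected on 5 of 5 control and 4 of 4 amoxicillin arrays at 4 d postweaning, and on 0 of 4 amoxicillin arrays at day 1. The probes of CCL11 were well above background on 42 and 11 arrays and those of IL1B2 on 40, 2 and 0, so the averages over probes understate the brightest one. IL1B2 and IL1B are close paralogs, as are CCL3L1 and CCL4, and their probes may share target RNA.

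IL9, a mast cell growth factor, was detected on 3 of the 4 amoxicillin arrays at day 1 and on none of the other 39 arrays. Those 4 arrays read 4.28, 8.01, 8.17 and 10.12 in log2 intensity. The 6 control arrays at day 1 ranged from 4.25 to 5.09 (median 4.65), none of them above background. IL9 failed the intensity filter through the array at 4.28, that of piglet 18, and so was not tested. On that array 58.4% of all gene spots were well above background. On those of piglets 2, 17 and 21, which detected IL9, the shares were 47.38, 46.39 and 47.41%. The part of this in the IL9 values was not tested.

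All 43 arrays were fitted together as 10 groups with limma, and p-values were adjusted by the Benjamini-Hochberg method over the 12771 transcripts tested. The p-values measure the spread between piglets. By the moderated F-test over the 5 ages, 20 of the 39 tested genes differed between ages in the control arm, where 30.5% of all tested transcripts did. In the amoxicillin arm 31 of 39 did, against 47% of all tested. Both arms passed for 18 genes (21.7% of all tested), and at least 1 arm for 33 genes (55.8% of all tested). Between adjacent ages, in the mean of both arms, 6 genes differed from day 1 to day 7 (3.13% of all tested), 9 from day 7 to weaning (11.5%), 14 from weaning to 4 d postweaning (13.7%) and 5 from 4 d to 4 wk postweaning (5.43%). In these 4 steps 24 genes differed at least once (28% of all tested). With the slide as a fixed block the counts were lower, 3 genes over the ages in control (0.525% of all tested) and 15 in amoxicillin piglets (10.1%), and 3, 4, 12 and 4 genes in the 4 steps (0.924, 4.24, 4.59 and 2.13%). Of the 14 genes of the third step 13 were higher at 4 d postweaning (6.19% of all tested) and 1 was lower (7.47%). The median difference of the 39 genes in this step was 0.75, with 33 of 39 higher, against a median of -0.03 and 47.4% higher over all tested transcripts.

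**Figure D2:**
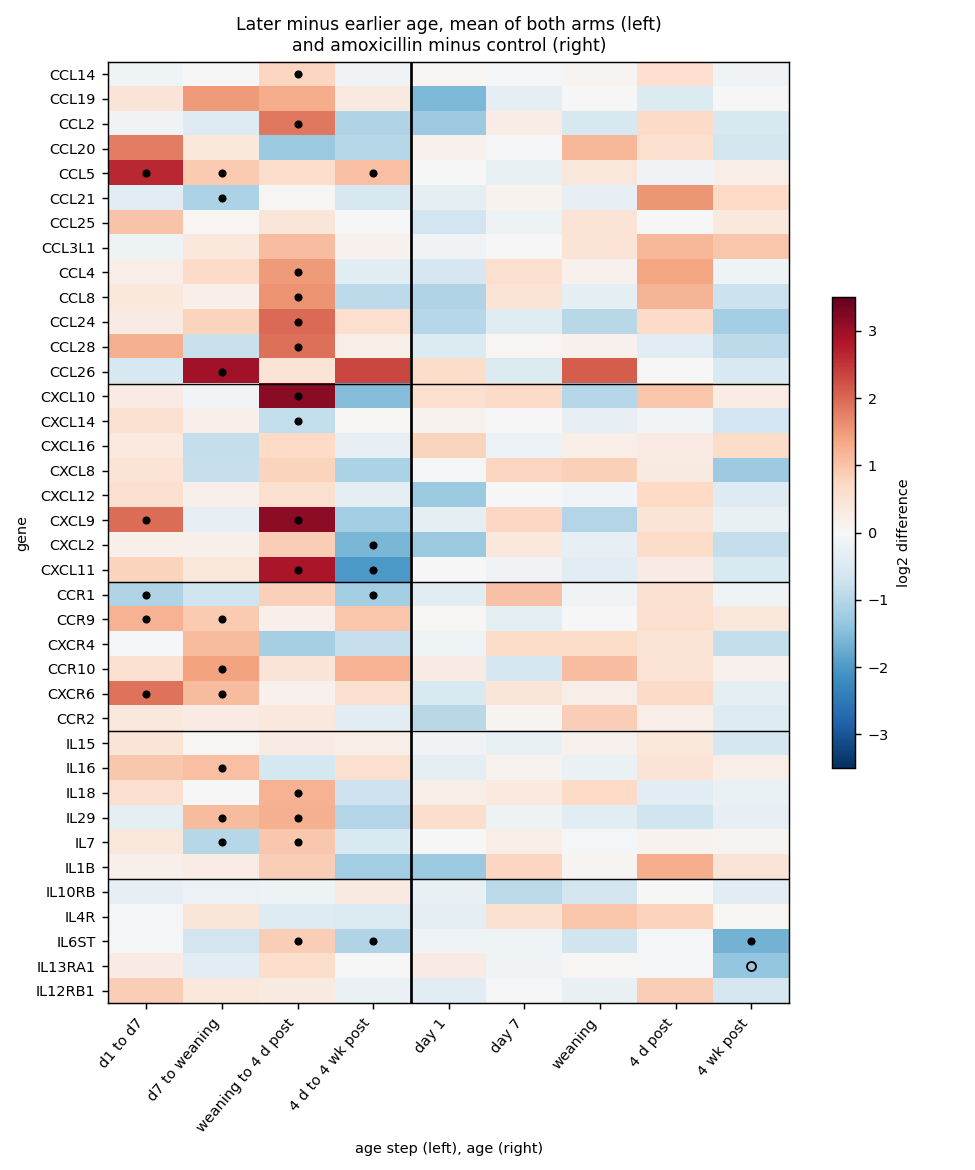
Log2 differences of 38 tested genes (rows, grouped by role) between adjacent ages in the mean of both arms (left 4 columns) and between amoxicillin and control at each age (right 5 columns). Filled dots mark an adjusted p under 0.05, which in the right part also needed a difference beyond 1.5, and the open circle marks IL13RA1, which passed the p alone. The step from weaning to 4 d postweaning holds 13 filled dots for higher values and 1 for a lower value (CXCL14).

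The interferon-induced CXC chemokines rose between weaning and 4 d postweaning. CXCL9 (NM_001114289) was 8.73-fold higher at 4 d postweaning than at weaning (log2 difference 3.13 ± 0.49, SE, adjusted p = 0.000155), CXCL10 (NM_001008691) 8.88-fold (3.15 ± 0.56, adjusted p = 0.000528) and CXCL11 (NM_001128491) 7.22-fold (2.85 ± 0.51, adjusted p = 0.000565). "Within slides" stands here and further on for the same difference with the slide as a fixed block. In each step but the first, 1 arm of such a value rests on 1 array that shares its slide with the other age, namely amoxicillin piglet 24 of day 7 from day 7 to weaning, control piglet 10 of 4 d postweaning from weaning to 4 d postweaning, and amoxicillin piglet 34 of 4 d postweaning from 4 d to 4 wk postweaning. Each of the 3 chemokines passed the test within slides too, with log2 differences of 3.72, 3.47 and 3.42, and each kept its call when any 1 array was left out.

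For CXCL9 the 3 control arrays at weaning read 8.01, 9.30 and 9.64 in log2 intensity, and the 5 at 4 d postweaning read 8.98, 10.53, 12.18, 12.43 and 12.67. In the amoxicillin arm the 4 arrays at weaning read 7.40, 7.49, 8.08 and 8.84, and the 4 at 4 d postweaning 11.23, 11.40, 12.22 and 12.48. The 2 ages did not overlap in the amoxicillin arm and overlapped through 1 array, control piglet 30, in the control arm. At 4 wk postweaning CXCL9 ranged from 8.86 to 12.06 in control and from 8.52 to 11.38 in amoxicillin piglets, a log2 difference of -1.23 ± 0.49 from the age before that did not pass the test (adjusted p = 0.123). CXCL9 had already risen 3.86-fold from day 1 to day 7 (1.95 ± 0.44, adjusted p = 0.00716, or 0.085 within slides).

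CXCL10 read 11.63, 11.86 and 12.43 at weaning and 11.03, 13.29, 15.07, 15.51 and 15.79 at 4 d postweaning in control piglets. In amoxicillin piglets it read 9.70, 10.27, 10.49 and 13.47 at weaning and 14.11, 14.88, 15.47 and 16.00 at 4 d postweaning. The array at 16.00 was saturated on both probes, so its true level may be higher. Again control piglet 30 was the array that stayed low. Day 1 and day 7 gave values of 9.79 to 13.52 over both arms, within the range at weaning but for 1 array. At 4 wk postweaning CXCL10 ranged from 11.41 to 14.69 in control and from 12.87 to 13.46 in amoxicillin piglets. The log2 difference from 4 d postweaning, -1.52 ± 0.56, did not pass the test (adjusted p = 0.0949).

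CXCL11 was the dimmest of the 3 and was detected on 16 arrays only. It entered the tests only through the amoxicillin arrays of 4 d postweaning, the bright side of this rise and of the fall after it. At day 1 it was well above background on none of the 10 arrays (4.01 to 5.69). At weaning 2 of 3 control arrays detected it (5.92, 6.37 and 6.63, the lowest not above background) and none of the 4 amoxicillin arrays (5.15 to 6.40). At 4 d postweaning it was detected on 4 of 5 control arrays (5.40, 7.80, 9.72, 10.33 and 10.81) and on all amoxicillin arrays (8.41, 8.43, 9.53 and 10.07). For the amoxicillin arm this rise was at least 7.69-fold. This bound sets the bright group's mean against the dim group's mean of, on each array, the higher of the probe's own signal and the lowest signal among probes well above background. It takes no account of the spread between piglets, here or further on. CXCL11 was then 3.99-fold lower at 4 wk than at 4 d postweaning, its mean falling from 8.96 to 6.96 (SE of the difference 0.51, adjusted p = 0.0206). This fall rested on few arrays: the adjusted p was 0.083 without control piglet 34, 0.0677 without control piglet 37, 0.055 without amoxicillin piglet 32 of 4 d postweaning, and 0.32 within slides.

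Of the other CXC chemokines, CXCL14, made by epithelial cells, was 1.82-fold lower at 4 d postweaning than at weaning (-0.86 ± 0.27, adjusted p = 0.027, or 0.603 within slides and up to 0.0632 in 5 of 43 repeats that left out 1 array). CXCL2, a neutrophil attractant, was 3.01-fold lower at 4 wk than at 4 d postweaning (-1.59 ± 0.39, adjusted p = 0.0144). It entered the tests only through the amoxicillin arrays of 4 d postweaning, the bright side of this fall. It was not well above background on any of the 4 amoxicillin arrays of 4 wk postweaning, so that within the amoxicillin arm it was at least 4.46-fold lower. Without control piglet 34 the adjusted p was 0.0926, and within slides 0.283. CXCL8, the other neutrophil attractant, and CXCL12, the ligand of CXCR4, differed between ages in the amoxicillin arm only by the F-test (adjusted p = 0.00865 and 0.0307, against 0.574 and 0.888 in control), and the difference between arms did not pass its own test (adjusted p = 0.309 and 0.494). CXCL16, the ligand of CXCR6, was bright on every array (13.07 to 16.00), saturated on both probes on 6 arrays, and passed no test.

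Among the CC chemokines, CCL5 (NM_001129946), which attracts T cells and is itself made by cytotoxic lymphocytes, was higher at the later age in 3 of the 4 steps. The 6 control arrays at day 1 ranged from 9.33 to 10.18 in log2 intensity (median 9.77), and those at day 7 from 12.13 to 13.00 (median 12.50). In amoxicillin piglets CCL5 read 9.05, 9.67, 9.67 and 10.60 at day 1 and 11.75, 11.89, 12.42 and 13.04 at day 7. The ages did not overlap in either arm, and the rise was 6.28-fold (2.65 ± 0.26, adjusted p = 5.77e-09, or 7.14e-07 within slides).

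CCL5 then read 12.56, 13.24 and 13.59 in control and 11.96, 13.92, 13.95 and 14.28 in amoxicillin piglets at weaning. At 4 d postweaning it read 12.97, 13.89, 14.09, 14.41 and 14.64 in control and 13.33, 13.36, 13.79 and 15.08 in amoxicillin piglets, overlapping with weaning in both arms, and this step did not pass the test (0.62 ± 0.29, adjusted p = 0.148). At 4 wk postweaning it reached 14.74, 14.80 and 15.10 in control and 14.76, 14.93, 15.30 and 15.40 in amoxicillin piglets. The step from day 7 to weaning was 1.89-fold (0.92 ± 0.28, adjusted p = 0.0301, or 0.0824 within slides) and that from 4 d to 4 wk postweaning 2.06-fold (1.04 ± 0.29, adjusted p = 0.0294, or 0.0494 within slides). Leaving out any of 6 arrays of day 7 and weaning ended the first of these calls (adjusted p up to 0.08). The second was lost without any of 5 arrays, most of all control piglet 34 (adjusted p = 0.108), and under both scalings to the 75th percentile of each array (0.126 and 0.136). CCL5 did not pass the amoxicillin test at any age, and no 95% interval of the difference reached beyond 1.27 in either direction.

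The monocyte and T cell attractants CCL2 (MCP-1), CCL8 and CCL4 (MIP-1 beta) rose together with CXCL9 and CXCL10 between weaning and 4 d postweaning. CCL2 was 3.58-fold higher (1.84 ± 0.38, adjusted p = 0.00151), CCL8 2.94-fold (1.56 ± 0.47, adjusted p = 0.0255) and CCL4 2.81-fold (1.49 ± 0.37, adjusted p = 0.00751). For CCL2 the amoxicillin arrays read 7.99, 9.52, 10.04 and 10.27 at weaning and 11.23, 11.99, 12.16 and 12.26 at 4 d postweaning. The control arrays of CCL2 read 8.70, 10.60 and 10.73 at weaning and ranged from 9.97 to 12.24 (median 11.57) at 4 d postweaning. These ages overlapped in the control arm and not in the amoxicillin arm, but the amoxicillin contrast of CCL2 was not shown to differ between ages (adjusted p = 0.295). CCL8 lost its call within slides (adjusted p = 0.162), and without control piglet 25 of weaning (adjusted p = 0.0704). CCL14, a ligand of CCR1, was 1.68-fold higher over the same step (0.75 ± 0.23, adjusted p = 0.0289), but the call was lost within slides (0.252) and in 7 of 43 repeats that left out 1 array. CCL3L1 passed the F-test over ages in the amoxicillin arm (adjusted p = 0.00124) and no step.

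The eotaxins CCL24 and CCL26, ligands of the eosinophil receptor CCR3, were dim at day 1 and bright after weaning. This did not hold for all eotaxins. The untested CCL11 had control means of 7.86 at day 1, 6.87 at 4 d and 7.75 at 4 wk postweaning. In amoxicillin piglets these means were 6.97, 7.68 and 7.61. Group means of CCR3, also untested, lay between 6.21 and 7.02. CCL24 was 3.95-fold higher at 4 d postweaning than at weaning (1.98 ± 0.58, adjusted p = 0.0203), and without control piglet 24 of weaning the adjusted p was 0.1. CCL24 entered the tests only through groups of 4 d postweaning, the bright side of this rise, and 4 wk postweaning. Its amoxicillin arrays read 6.95, 7.36, 7.56 and 8.06 at weaning and 9.35, 9.73, 10.68 and 11.34 at 4 d postweaning. Its control arrays were scattered at both ages, with 6.36, 9.30 and 9.65 at weaning and 6.38, 8.56, 9.99, 11.04 and 12.07 at 4 d postweaning.

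CCL26 (NM_001078665) rose one step earlier, between day 7 and weaning, by 7.60-fold (2.93 ± 0.85, adjusted p = 0.0222, or 0.0452 within slides). In control piglets it ranged from 4.65 to 8.51 at day 7 (median 5.73) and read 5.66, 7.23 and 9.89 at weaning, with overlap and with the lowest array not well above background. In amoxicillin piglets it was not well above background on any array of day 7 (4.62 to 6.11) and read 7.41, 9.44, 10.65 and 11.39 at weaning, at least 14.2-fold higher. The adjusted p of the mean of both arms was 0.115 without control piglet 7 of weaning and 0.0564 without amoxicillin piglet 8 of weaning. CCL26 was bright 4 wk postweaning, with 10.58, 11.61 and 13.04 in control and 7.74, 10.23, 12.93 and 13.92 in amoxicillin piglets, the value of 7.74 not well above background.

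CCL28, the mucosal chemokine for IgA plasma cells, was 3.84-fold higher at 4 d postweaning than at weaning (1.94 ± 0.49, adjusted p = 0.00805, or 0.0183 within slides). It entered the tests only through control groups of 4 d postweaning, the bright side of this rise, and 4 wk postweaning. It read 5.25, 6.37 and 7.96 in control and 5.84, 6.24, 7.24 and 7.32 in amoxicillin piglets at weaning, the lowest control and the 2 lowest amoxicillin arrays not being well above background. At 4 d postweaning it read 8.07, 8.30, 8.51, 8.95 and 9.74 in control and 7.65, 8.27, 8.71 and 8.80 in amoxicillin piglets. The 2 ages did not overlap in either arm. CCL25, the ligand of CCR9, was bright from day 1 and was saturated on 13 arrays, so that differences between its later ages cannot be read. It passed the F-test over ages in the amoxicillin arm (adjusted p = 0.00548) and no step.

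CCL21, made by lymphatic endothelium, was 2.17-fold lower at weaning than at day 7 (-1.12 ± 0.35, adjusted p = 0.0309, or 0.145 within slides and up to 0.119 in 5 of 43 repeats that left out 1 array). CCL21 ranged from 10.84 to 11.66 at day 1 in control piglets (median 11.25), and the 3 control arrays at 4 wk postweaning read 7.76, 8.97 and 9.46, all lower, that at 7.76 not well above background. In amoxicillin piglets it ranged from 9.46 to 11.56 at day 1 and from 8.62 to 10.30 at 4 wk postweaning, with overlap. Both arms passed the F-test over ages (adjusted p = 4.15e-05 in control and 0.0166 in amoxicillin piglets). The amoxicillin contrast of CCL21 was not shown to differ between ages (adjusted p = 0.226). CCL19, the other CCR7 ligand, passed the F-test over ages in both arms (adjusted p = 0.00178 in control and 0.000164 in amoxicillin piglets) and no single step. It ranged from 8.65 to 11.05 at day 1 and from 11.46 to 13.06 at 4 wk postweaning in control piglets, without overlap. CCL20, the ligand of CCR6 made by the epithelium over lymphoid follicles, varied from 8.45 to 15.85 between arrays and passed no test.

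**Figure D3:**
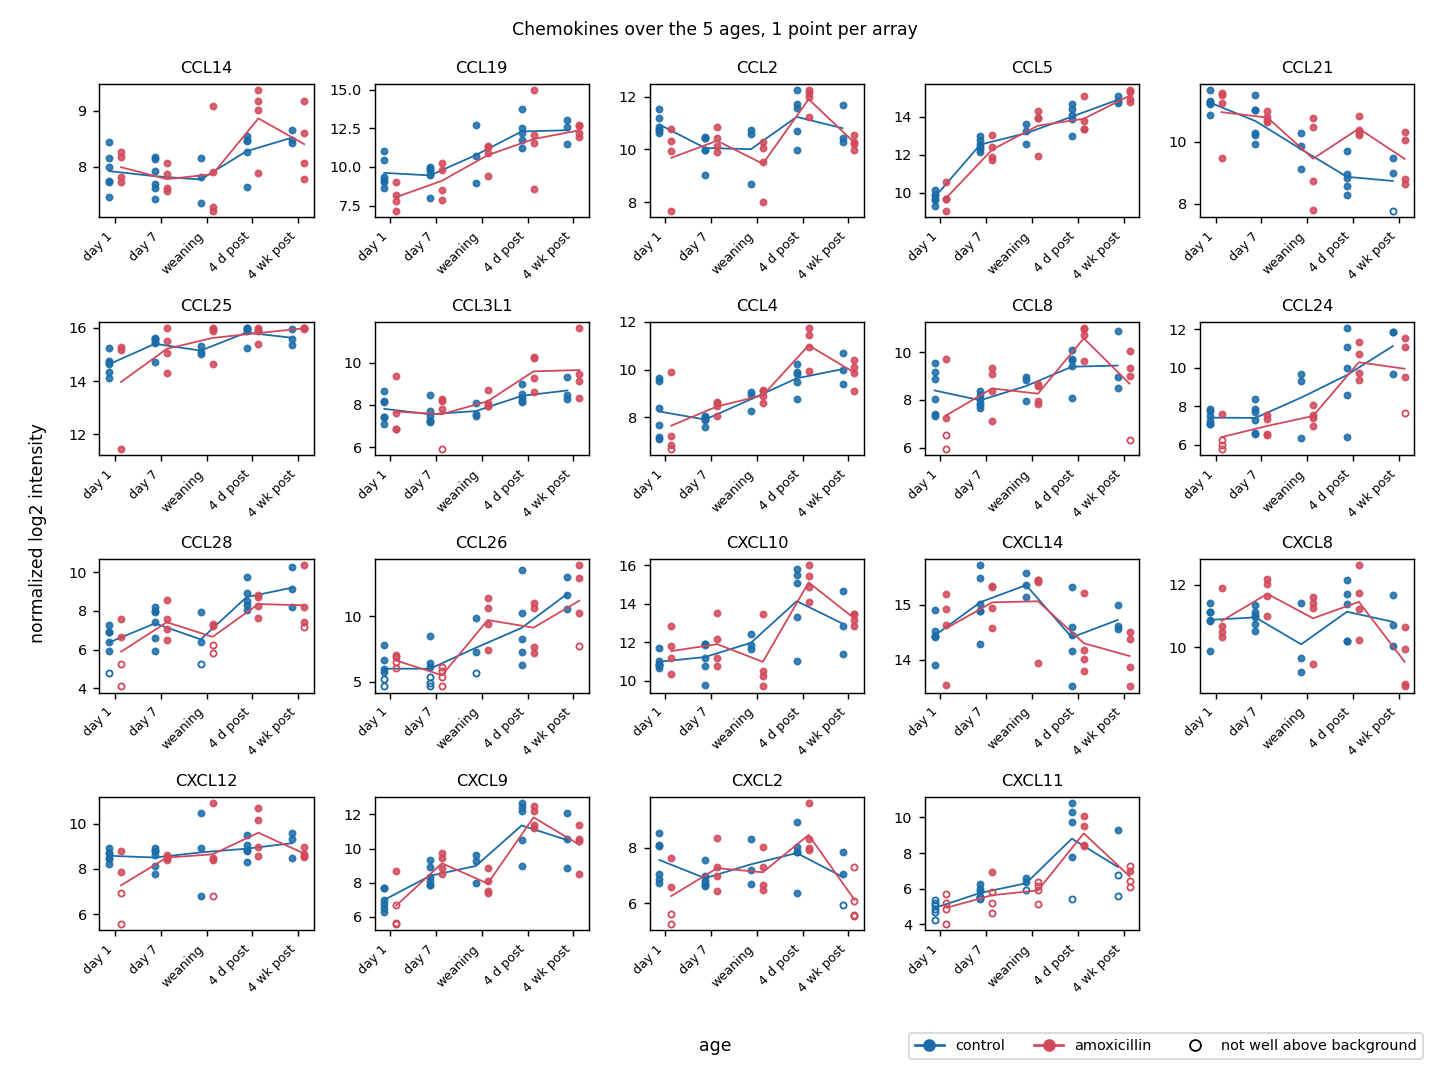
Normalized log2 intensity of the 19 chemokines that passed at least 1 test, 1 point per array at each of the 5 ages, control in blue and amoxicillin in red, with lines through the group means and open points for arrays not well above background. CCL5 climbs in both arms, CCL21 has a lower mean at 4 wk postweaning than at day 1 in both arms, and CXCL9, CXCL10 and CXCL11 have their highest means at 4 d postweaning in both arms.

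Of the chemokine receptors, CXCR6 (NM_001001623), carried by tissue-resident T cells, was 3.76-fold higher at day 7 than at day 1 (1.91 ± 0.27, adjusted p = 9.22e-06, or 0.000301 within slides). The 6 control arrays of CXCR6 ranged from 5.77 to 6.72 at day 1 (median 6.21) and from 7.19 to 8.11 at day 7 (median 7.70). In amoxicillin piglets it was not well above background on any array of day 1 (4.89, 5.89, 5.96 and 6.07) and read 7.68, 7.75, 8.13 and 8.78 at day 7, at least 5.23-fold higher. The ages did not overlap in either arm. CXCR6 rose a further 2.16-fold to weaning (1.11 ± 0.29, adjusted p = 0.011, or 0.0427 within slides), where it read 8.41, 8.66 and 9.60 in control and 8.27, 8.55, 9.50 and 10.04 in amoxicillin piglets.

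CCR9, the gut-homing receptor, was 2.34-fold higher at day 7 than at day 1 (1.23 ± 0.28, adjusted p = 0.00729, or 0.177 within slides). It ranged from 6.68 to 7.39 at day 1 and from 7.87 to 8.81 at day 7 in control piglets, and read 6.33, 6.62, 7.36 and 7.59 at day 1 and 7.70, 7.99, 8.17 and 8.18 at day 7 in amoxicillin piglets. The ages did not overlap in either arm. By 4 wk postweaning CCR9 averaged 10.06 ± 0.84 (SD, n = 3) in control and 10.45 ± 0.82 (SD, n = 4) in amoxicillin piglets. Its step from day 7 to weaning lay at the threshold (0.91 ± 0.31, adjusted p = 0.0479, or 0.342 within slides) and was lost in 26 of 43 repeats that left out 1 array.

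CCR10 (NM_001044563), the receptor of CCL28 on plasma cells, was 2.63-fold higher at weaning than at day 7 (1.40 ± 0.42, adjusted p = 0.0247, or 0.00269 within slides). The amoxicillin part of the value within slides sets the array of piglet 24, at 4.77 the dimmest of its group, against the 4 arrays of weaning, and the difference in that arm went from 2.23 to 4.24. In amoxicillin piglets CCR10 read 4.77, 6.98, 7.13 and 8.24 at day 7 and 8.65, 9.04, 9.08 and 9.27 at weaning, without overlap, the array at 4.77 not being well above background. In control piglets it ranged from 6.79 to 8.15 at day 7 and read 6.36, 8.43 and 8.98 at weaning, with overlap through piglet 25. The adjusted p was 0.121 without control piglet 7, 0.0602 without control piglet 24 of weaning and 0.0655 without amoxicillin piglet 24 of day 7. CCR10 read 9.67, 10.15 and 10.39 in control piglets 4 wk postweaning, above every control array of the ages before. Within slides CCR10 and CCR9 also passed the test from 4 d to 4 wk postweaning (2.18 ± 0.46 and 1.51 ± 0.41, adjusted p = 0.00655 and 0.0445), which neither did without the block (0.0761 and 0.0538). These values rest on 1 amoxicillin array of 4 d postweaning, that of piglet 34, and the amoxicillin part went from 1.06 to 2.85 for CCR10 and from 0.89 to 1.88 for CCR9.

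CCR1, a receptor of monocytes and neutrophils, fell in the first and the last step. CCR1 was 2.09-fold lower at day 7 than at day 1 (-1.06 ± 0.28, adjusted p = 0.0224, or 0.419 within slides and up to 0.0858 without any of 3 amoxicillin arrays). In control piglets it ranged from 10.24 to 10.95 at day 1 and from 8.47 to 9.37 at day 7, without overlap. In amoxicillin piglets it read 9.92, 9.92, 10.20 and 10.93 at day 1 and 8.97, 9.42, 9.93 and 11.23 at day 7, with overlap. Its mean went from 8.67 at weaning to 9.49 at 4 d postweaning, a difference that passed the test within slides (1.38 ± 0.40, adjusted p = 0.0382) and not without the block (0.83 ± 0.31, adjusted p = 0.0667). It was then 2.26-fold lower at 4 wk than at 4 d postweaning (-1.18 ± 0.31, adjusted p = 0.0227, 0.307 within slides, 0.101 without control piglet 34 and 0.0614 without amoxicillin piglet 32 of 4 d postweaning). CXCR4, the receptor of CXCL12, passed the F-test over ages in the amoxicillin arm (adjusted p = 0.0404) and no step.

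T cell markers moved with the first of these steps and, in part, with the last. All 7 tested genes of a list of 12 T cell markers were higher at day 7 than at day 1 (2.01% of all tested transcripts). Within slides 4 of them passed too (0.924% of all tested differed). Among the 7 were CD3E (2.32 ± 0.31, adjusted p = 3.5e-06), CD2 (1.80 ± 0.32), also higher at 4 d postweaning than at weaning (1.63 ± 0.36), and the cytotoxic granule protease GZMB (2.38 ± 0.39). Summed levels are the log2 of summed linear intensities, so the brightest genes of a list weigh most. Of the genes summed here and below, GZMB was saturated on 4 arrays and the macrophage marker LYZ on 8. The summed level of the 8 T cell markers with a named probe ranged from 10.22 to 11.63 at day 1 and from 12.57 to 13.64 at day 7 in control piglets, and from 10.23 to 11.58 and from 12.10 to 13.52 in amoxicillin piglets. None of these 8 was below background on all arrays of a group, but for 1 in amoxicillin piglets of day 1. From 4 d to 4 wk postweaning 2 of the 7 were higher (1.51% of all tested), CD8A (1.42 ± 0.23, adjusted p = 0.00052) and GZMB (1.65 ± 0.43, adjusted p = 0.0225, or 0.202 within slides), where CCL5 was called too. The summed level of the T cell markers then ranged from 13.42 to 15.34 and from 15.61 to 16.16 in control piglets, without overlap, and from 13.84 to 15.49 and from 15.32 to 16.25 in amoxicillin piglets. Likewise 3 of 4 tested B and plasma cell markers were higher at weaning than at day 7 (5.69% of all tested), MS4A1 by 3.55 ± 0.75, CD79A by 3.41 ± 0.79 and BLNK by 0.92 ± 0.28 (adjusted p = 0.0023, 0.00512 and 0.0289, or 0.104, 0.168 and 0.287 within slides). The remaining tested gene of this list, XBP1, was not called, and the plasma cell genes JCHAIN, PRDM1 and TNFRSF17 of the list were not tested. The summed level of the 5 markers of this list with a named probe ranged from 13.93 to 14.40 at day 7 and from 14.01 to 15.89 at weaning in control piglets, and from 13.83 to 14.72 and from 14.58 to 16.22 in amoxicillin piglets. At 4 d postweaning, where CCL28 was higher, it ranged from 14.02 to 14.74 in control and from 14.31 to 14.68 in amoxicillin piglets. The median difference of the 4 tested genes was -1.25 from weaning to 4 d postweaning and -0.24 from there to 4 wk, with none called (13.7 and 5.43% of all tested differed). The third step had 4 of 5 tested macrophage and dendritic cell markers higher at 4 d postweaning than at weaning (6.19% of all tested), among them CD163 (2.11 ± 0.43) and CD86 (1.32 ± 0.29). The summed level of the 6 with a named probe ranged from 12.93 to 15.80 at weaning and from 14.59 to 16.20 at 4 d postweaning in control piglets, and from 13.37 to 15.20 and from 14.33 to 16.41 in amoxicillin piglets. From day 1 to day 7, where CCR1 fell, 3 of these 5 were higher (2.01% of all tested), CD86 (0.98 ± 0.26), LYZ (3.09 ± 0.72) and AIF1 (0.69 ± 0.20), none of them within slides (adjusted p = 0.177, 0.37 and 0.217). The summed level of the macrophage and dendritic cell markers ranged from 12.42 to 14.43 at day 1 and from 13.75 to 16.17 at day 7 in control piglets, and from 12.79 to 14.31 and from 14.97 to 16.21 in amoxicillin piglets. The part of these cells in the differences of the chemokines and receptors was not tested.

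Of the interleukins, IL18, a cytokine of the epithelium and macrophages that inflammasomes activate, was 2.35-fold higher at 4 d postweaning than at weaning (1.23 ± 0.29, adjusted p = 0.00485, or 0.0102 within slides). IL18 read 9.94, 10.59 and 12.20 at weaning and 12.46, 12.61, 12.62, 12.80 and 12.92 at 4 d postweaning in control piglets, without overlap. In amoxicillin piglets it read 10.87, 11.33, 12.02 and 12.21 at weaning and 10.79, 12.23, 13.06 and 13.13 at 4 d postweaning, with overlap through piglet 34.

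IL29 (NM_001142837), an interferon of the lambda type that acts on epithelial cells, rose in both steps around weaning. It was 2.17-fold higher at weaning than at day 7 (1.12 ± 0.35, adjusted p = 0.0301, or 0.00251 within slides) and a further 2.36-fold higher at 4 d postweaning (1.24 ± 0.35, adjusted p = 0.0166, or 0.0178 within slides). It entered the tests only through control groups of 4 d postweaning, the bright side of the second rise, and 4 wk postweaning. In control piglets IL29 ranged from 6.32 to 7.26 at day 7 (median 6.88), read 7.45, 7.94 and 8.88 at weaning, and 7.85, 9.53, 9.85, 10.11 and 10.12 at 4 d postweaning. In amoxicillin piglets it read 5.07, 6.91, 6.98 and 7.81 at day 7, 7.48, 7.56, 7.62 and 8.17 at weaning, and 7.09, 8.37, 9.44 and 10.22 at 4 d postweaning. The first step separated the control groups and not the amoxicillin groups. Its amoxicillin part within slides rests on 1 array of day 7, that of piglet 24 at 5.07, and went from 1.01 to 2.64 with the block, and without that piglet the call was lost (0.85, adjusted p = 0.078). Single arrays ended the first call in 3 of 43 repeats (adjusted p up to 0.0998) and the second in 2 (up to 0.0518).

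IL16, an attractant of CD4 T cells, was 2.08-fold higher at weaning than at day 7 (1.06 ± 0.32, adjusted p = 0.0277), which was lost within slides (0.319) and without control piglet 7 of weaning (0.189), amoxicillin piglet 8 of weaning (0.0949) or amoxicillin piglet 20 of day 7 (0.0701). IL7, a growth factor of lymphocytes made by the epithelium and stroma, was 1.99-fold lower at weaning than at day 7 (-0.99 ± 0.32, adjusted p = 0.0401) and 1.94-fold higher at 4 d postweaning than at weaning (0.95 ± 0.33, adjusted p = 0.0474). Both calls of IL7 were lost within slides (0.0696 and 0.371), and leaving out 1 array ended them in 9 and 23 of 43 repeats. IL7 entered the tests through groups of day 1, day 7 and 4 d postweaning, and through no group of weaning, the dim side of both calls. IL1B passed the F-test over ages in the amoxicillin arm (adjusted p = 0.025) and no step. It entered the tests only through the amoxicillin arrays of 4 d postweaning, its brightest group and part of that F-test. IL15, which maintains intraepithelial lymphocytes, ranged from 7.52 to 9.85 over all arrays and passed no test.

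Of the interleukin receptors, IL6ST was 1.81-fold higher at 4 d postweaning than at weaning (0.85 ± 0.26, adjusted p = 0.0268, and up to 0.0729 without any of 4 arrays of these ages) and 2.06-fold lower at 4 wk than at 4 d postweaning (-1.04 ± 0.26, adjusted p = 0.0194). The second of these calls was lost within slides (0.245), without control piglet 34 (0.0579) and without amoxicillin piglet 39 (0.0533), and it includes the amoxicillin arrays of 4 wk postweaning described further on. IL12RB1, a chain of the IL-12 receptor on T cells, passed the F-test over ages in both arms (adjusted p = 0.0383 and 0.00224). It ranged from 6.46 to 7.11 at day 1 and from 7.97 to 8.52 at 4 wk postweaning in control piglets. Within slides IL12RB1 rose from day 1 to day 7 (0.78 ± 0.20, adjusted p = 0.0449) and fell from 4 d to 4 wk postweaning (-1.46 ± 0.24, adjusted p = 0.000394), and without the block neither step passed (0.0869 and 0.725). The amoxicillin part of the fall within slides rests on piglet 34 of 4 d postweaning, which read 11.28 where all other arrays read 8.52 or less, and in control piglets the difference within slides was 0.64. IL4R passed the F-test over ages in the amoxicillin arm (adjusted p = 0.00739) and IL13RA1 in the control arm (0.0225), and IL10RB passed no test. IL13RA1 entered the tests only through the control arrays of 4 wk postweaning, its brightest group and part of that F-test.

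**Figure D4:**
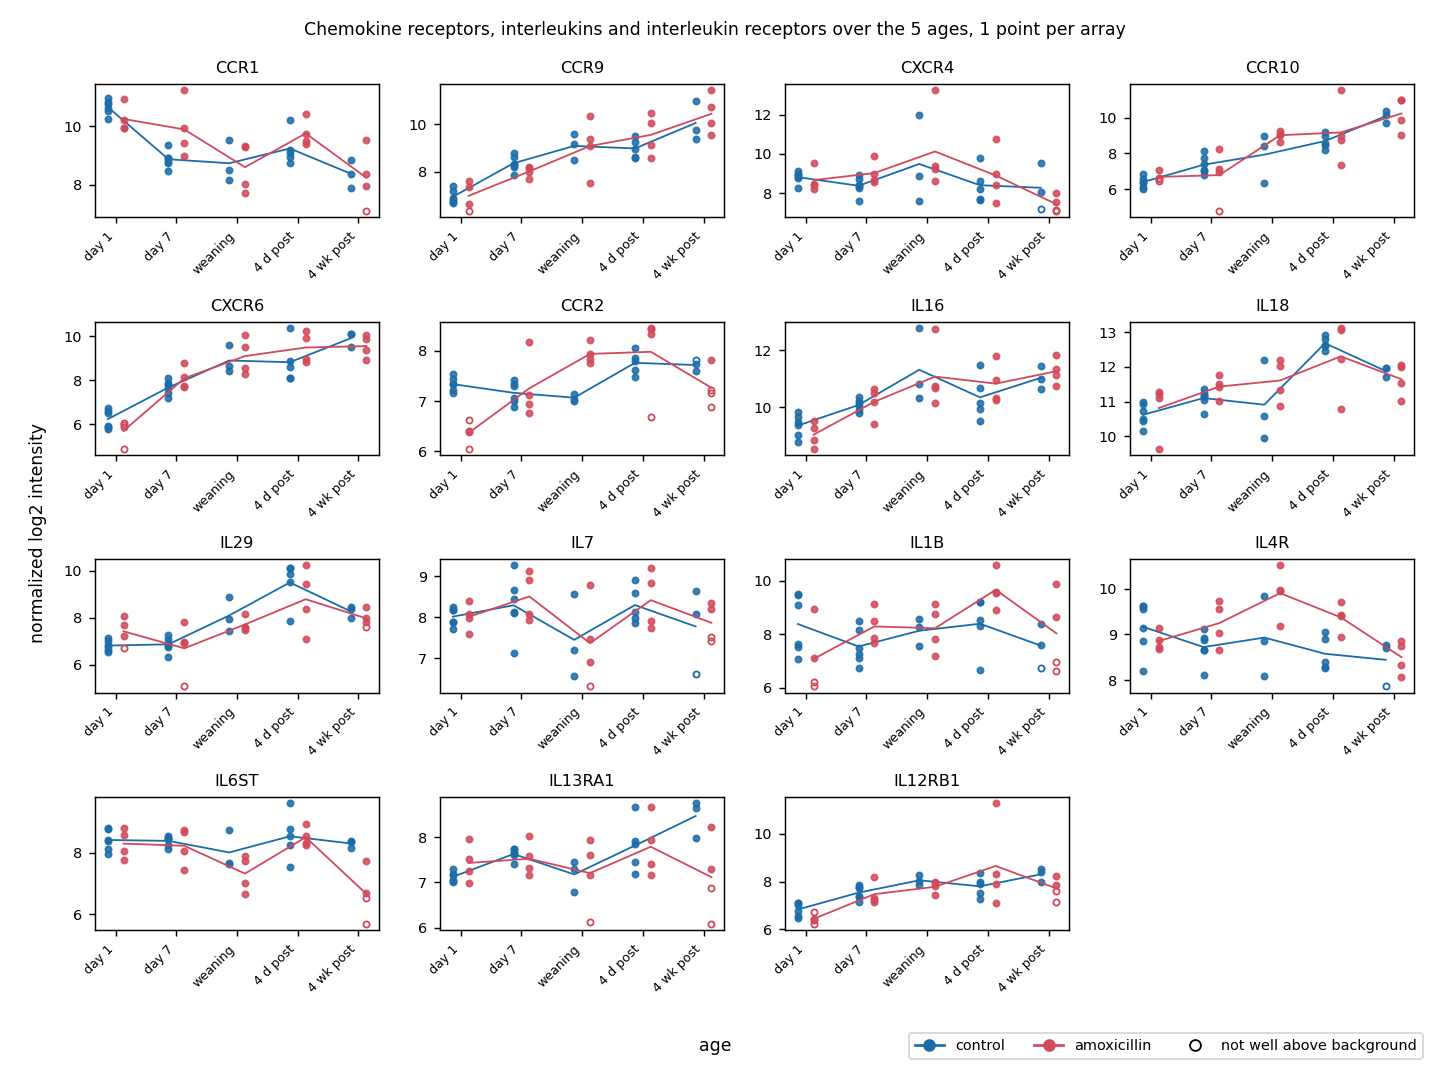
Normalized log2 intensity of 15 chemokine receptors, interleukins and interleukin receptors that passed at least 1 test, 1 point per array at each of the 5 ages, control in blue and amoxicillin in red, with lines through the group means and open points for arrays not well above background. CXCR6, CCR9 and CCR10 lie higher at 4 wk postweaning than at day 1 in both arms, CCR1 is high at day 1 and again higher at 4 d postweaning than at weaning, IL29 and IL18 have their highest means at 4 d postweaning, and IL6ST of amoxicillin piglets is low at 4 wk postweaning.

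Amoxicillin and control piglets were compared at each age with a threshold of an adjusted p under 0.05 and a log2 difference beyond 1.5. None of the 39 genes was called at day 1 (0.211% of all tested transcripts), day 7 (0%), weaning (3.41%) or 4 d postweaning (1.54%) by limma. At an unadjusted p under 0.05 these counts were 7, 2, 2 and 5 genes, against 9.9, 6.95, 22.2 and 13.6% of all tested, and 3 genes 4 wk postweaning, against 17.4%. For 4 wk postweaning 1 gene was called (2.13% of all tested). In a fit that took the slide as a random block none was called at any of the 5 ages (0, 0, 0.955, 0 and 0.509% of all tested).

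That gene was IL6ST (NM_001097432), the signal-transducing chain of the IL-6 receptor family, which was 3.13-fold lower in amoxicillin piglets (-1.65 ± 0.40, adjusted p = 0.012). Its 3 control arrays read 8.17, 8.35 and 8.39 in log2 intensity and the 4 amoxicillin arrays 5.67, 6.54, 6.69 and 7.73, without overlap. The 2 dimmest of these were not well above background. Both probes of IL6ST were lower, by 1.95 and 1.34 on the log2 scale. At the 4 earlier ages the difference lay between -0.69 and -0.03. The call was lost without control piglet 34 (-1.62, adjusted p = 0.0539), without amoxicillin piglet 39 (-1.32, adjusted p = 0.0671) and without the 3 arrays of low detection (0.129). The random slide block (0.0649) and the scaling of background-corrected intensities to their 75th percentile (0.0838) ended it too.

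IL13RA1, a chain of the IL-13 receptor, was also lower in amoxicillin piglets at 4 wk postweaning, with a difference short of the threshold of 1.5 (-1.35 ± 0.38, adjusted p = 0.0344). It entered the tests only through the control arrays of this age, the bright side of the contrast. With no threshold on the size it would be a second call at this age (4.11% of all tested). The control arrays read 7.99, 8.65 and 8.75 and the amoxicillin arrays 6.08, 6.88, 7.29 and 8.22, with overlap through 1 array. The 2 dimmest were not well above background. The share of all gene spots well above background was 36.87 to 41.57% on amoxicillin arrays 37, 38 and 40 of this age. The part of this in the differences of IL6ST and IL13RA1 was not tested.

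CCR2 (NM_001001619), the receptor of CCL2 on monocytes, was the 1 gene whose amoxicillin contrast differed between ages (adjusted p = 0.0145, where 6.18% of all tested transcripts did). At day 1 the 6 control arrays ranged from 7.16 to 7.54 (median 7.34) and the amoxicillin arrays read 6.05, 6.38, 6.40 and 6.63, only that at 6.38 well above background. At weaning the control arrays read 7.01, 7.05 and 7.14 and the amoxicillin arrays 7.76, 7.83, 7.94 and 8.22. The groups did not overlap at either age and lay in opposite order, with differences of -0.98 ± 0.25 (adjusted p = 0.0785) and 0.87 ± 0.30 (adjusted p = 0.0614), neither of which passed the test on its own. CCR2 entered the tests through the amoxicillin arrays of weaning only. The difference between ages held without any 1 array (adjusted p up to 0.0323), but not with the slide as a fixed block (0.725, where 0.579% of all tested passed) or random block (0.378, where 0.376% passed). IL12RB1 was the 1 gene of the 39 to pass with the fixed block, in which piglet 34 is the 1 amoxicillin array of 4 d postweaning on its slide.

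CCL21 came nearest to a call at 4 d postweaning. The control arrays read 8.28, 8.58, 8.83, 8.95 and 9.68 and the amoxicillin arrays 10.21, 10.26, 10.36 and 10.83, without overlap. The difference was 1.55 ± 0.46 (adjusted p = 0.054) with a 95% interval of 0.61 to 2.49. At the same age CCL4 was higher by 1.38 ± 0.49 and IL4R by 0.80 ± 0.31 in amoxicillin piglets, neither past the test (adjusted p = 0.129 and 0.188). The median difference of the 39 genes was 0.48 at 4 d postweaning, against -0.01 over all tested transcripts, and -0.30 at 4 wk postweaning, against -0.17.

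A list of 75 other genes of cytokine and chemokine signalling was read beside them, of which 49 had a named probe and 31 were tested. Between weaning and 4 d postweaning 9 of the 31 were higher (6.19% of all tested transcripts) and 1 was lower (7.47%). Among the higher ones were CASP1, which activates IL18 (1.69 ± 0.22), ACKR4, a scavenger of CCL19, CCL21 and CCL25 (2.02 ± 0.29), STAT2 of interferon signalling (0.63 ± 0.17, adjusted p = 0.0123), IFNGR1 (0.72 ± 0.22), TGFB3 (1.11 ± 0.24) and the TNF family ligands TNFSF10 (1.38 ± 0.35), TNFSF13 (1.14 ± 0.30) and TNFSF13B (1.40 ± 0.36). Within slides STAT2, TNFSF10 and TNFSF13 lost the call (adjusted p = 0.0975, 0.0676 and 0.225). The lower one was NFKBIA, the inhibitor of NF-kappa-B (adjusted p = 0.0329, or 0.292 within slides). The chemokine XCL1 of cytotoxic lymphocytes was higher at day 7 than at day 1 (1.17 ± 0.25), and NFKBIA and TNFSF13 were higher and TGFB3 and CASP1 lower at weaning than at day 7, these 4 without passing within slides (adjusted p = 0.102, 0.336, 0.114 and 0.358). From 4 d to 4 wk postweaning STAT5B, TGFB3 and CASP1 were lower (5.43% of all tested differed) and none was higher. Of these TGFB3 passed within slides (adjusted p = 0.000945), while STAT5B and CASP1 did not (0.585 and 0.269). In the amoxicillin contrasts 1 of 31 was called lower at weaning, ACKR4 (-1.68 ± 0.43, adjusted p = 0.0123, where 3.41% of all tested were called), and 1 at 4 wk postweaning, TNFSF10 (-2.22 ± 0.52, adjusted p = 0.0101, where 2.13% were).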

How the data were processed

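RNA of jejunal scrapings was labelled with cyanine 3 and hybridized by the authors, whose deposited scans give each spot's linear intensity, local background and flags (Feature Extraction 10.7.3.1 per the file headers). Log2 values after normexp background correction (offset 1) and quantile normalization came with them, per the labels made by the authors in R 3.0.2. The same steps applied here to the median intensity gave that table within 5.0e-09 (limma 3.58.1, R 4.3.3). Outlier spots were then left out, and the probes of a transcript were averaged. The base value of dark spots was read here as the highest unflagged dark spot over all arrays, times 1.1 in log2. Gene symbols were joined by accession from a RefSeq table for 3037 of 35884 accessions (8.46%), and no sequence was used. The number of arrays and the brightness over background limit the precision. The fits were tested on simulated data. Alternatives were other scalings, filters, thresholds and blocks, and leaving out each array. The genes, lists and tests were chosen with earlier results of these data known. Of the lists, genes of neutrophils and blood had no tested member, KIT of mast cells passed no step, and 1 gene each of enterocytes and goblet cells and 2 of smooth muscle did. Genes past a test are plotted, and values per array are written out for those the results turn on. All sample columns of the deposited table were used. Results of 2 genes are counted but not reported by name.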

Additional observations from a re-analysis of the deposited data

Results flagged for a closer look

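The amoxicillin contrast of CCR2 differed between the ages (adjusted p = 0.0145, limma's moderated F-test). CCR2 entered the tests only through the amoxicillin arrays of weaning. The difference did not pass with the slide as a fixed or random block. For 25 genes, from those past a step or amoxicillin test with IL13RA1 and CCR2, each group of 4 to 6 arrays was searched for an array far from the rest by the ratio of its gap to the group's range. Of 200 groups 11 held such an array, where chance gives about 5%.

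In amoxicillin piglets of day 1, piglet 2 was low for CCL21 (9.46, others 11.25 to 11.56) and high for CCL4 (9.88, others 6.68 to 7.20), and piglet 17 was low for CXCR6 (4.89, others 5.89 to 6.07) and IL18 (9.64, others 11.10 to 11.29). At weaning amoxicillin piglet 8 was low for CCL5 (11.96, others 13.92 to 14.28) and piglet 7 for CXCL14 (13.93, others 15.42 to 15.46). At 4 d postweaning amoxicillin piglet 34 was low for CCR2 (6.68, others 8.34 to 8.46) and control piglet 30 for IL29 (7.85, others 9.53 to 10.12). In control piglets, piglet 16 of day 1 was high for CXCL10 (11.70, others 10.66 to 11.05), and piglets 4 and 21 of day 7 were low for CCL2 (9.03, others 9.98 to 10.47) and IL13RA1 (7.41, others 7.61 to 7.73).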

How the results depend on the processing

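Of 36 single results (35 differences and the test of CCR2 between ages), none changed direction under the alternatives run and 13 of them passed the test under every alternative in which the gene was tested, leaving out of single arrays apart. These 13 were CCL5 and CXCR6 from day 1 to day 7, CCL26 and CXCR6 from day 7 to weaning, and CCL2, CCL4, CCL24, CCL28, CXCL9, CXCL10, CXCL11, IL18 and IL29 from weaning to 4 d postweaning. Of these, CXCL11 entered the tests only through the amoxicillin arrays of 4 d postweaning, the bright side of its rise. CCL24, CCL28 and IL29 entered only through groups of 4 d and 4 wk postweaning. An offset of 50 and both percentile scalings left 32, 32 and 22 of the 36 bright enough to be tested. Slides carry 1 arm each, and 3 arrays of 4 wk postweaning had low detection, so contrasts of that age are the least certain. The removal of these 3 arrays was chosen after seeing the data.

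The 1 gene called at 4 wk postweaning became 0 with an offset of 50, with either percentile scaling, under a random slide block, without the 3 arrays, and 2 with no fold threshold (IL6ST and IL13RA1). The 0 at 4 d postweaning became 1, CCL21, with normexp at a common 75th percentile and without the 3 arrays. Without the filter the counts at day 1 and weaning were 1 each (IL9 and IL1RAPL1). The 1 gene whose contrast differed between ages became 0 with the random block, and with an offset of 50 or either percentile scaling, where CCR2 was too dim to be tested. It became 4 without the filter (CCR2, IL1B2, IL6R and IL9) and 3 with a filter on spots well above background. The processed signal gave 20 genes over ages in the amoxicillin arm, 8 from weaning to 4 d postweaning and 1 from 4 d to 4 wk postweaning. With the slide as a fixed block 3 genes in control and 15 in amoxicillin piglets differed between ages, 3 from day 1 to day 7 and 4 from day 7 to weaning. Without the filter 3 differed from day 7 to weaning, and without the 3 arrays 0 from 4 d to 4 wk postweaning. The cause of these other changes was not tested.

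At day 1 the repeats without 1 array gave 0 to 1 calls, the 1 being IL9 without amoxicillin piglet 18. The array of that piglet, at 4.28, had kept IL9 from the tests. IL9 then entered only through the other amoxicillin arrays of day 1, the bright side of this contrast. Leaving out each array gave 0 calls at day 7 and weaning, and 0 to 1 at 4 d postweaning. The latter was CCL4 without amoxicillin piglet 34 of that age, and CCL21 without control piglet 10 of that age, control piglet 34 of 4 wk postweaning, amoxicillin piglet 2 of day 1 or amoxicillin piglet 8, 25 or 29 of weaning. For 4 wk postweaning it gave 0 (without control piglet 34 or amoxicillin piglet 39) to 2 (without control piglet 37 or amoxicillin piglet 40). It gave 1 to 3 genes whose contrast differed between ages, 3 of them without amoxicillin piglet 40. It gave 2 without amoxicillin piglet 2 of day 1, and 2 without piglet 18 of day 1, with IL9 entered as above. Over ages it gave 18 to 22 genes in control and 27 to 33 in amoxicillin piglets. The steps gave 4 to 8 genes from day 1 to day 7, 3 to 10 from day 7 to weaning (3 without control piglet 7 and 5 without amoxicillin piglet 8 of weaning), 10 to 15 from weaning to 4 d postweaning, and 0 to 12 from 4 d to 4 wk postweaning. The last count was 0 without control piglet 34 and 3 without amoxicillin piglet 39 of 4 wk postweaning, and 2, 11 and 12 without amoxicillin piglets 32 and 34 and control piglet 30 of 4 d postweaning.

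Piglet numbers that recur in both arms of an age did not pair the samples: the correlations of 10 such pairs ran from -0.274 to 0.443. With the number as a replicate block 1 gene, CCL21, was called at 4 d postweaning.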
